A study of Mus musculus with 19 samples.

Results

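The genes described here are 15 ligands and 21 receptors of the tumour necrosis factor (TNF) superfamily, 36 of the 22878 gene symbols in the RNA tables. They were taken by name, a rule that uses no measured value, from a list proposed with earlier results of these data known, and the transcript with the most reads over the 16 RNA libraries stood for each gene. The filter on low values (an RPKM of 1 in at least 2 libraries) left 33 of the 36 in the Bcl11b experiment and 29 in the other. Tnfsf13, Tnfrsf11a and Ltbr passed in neither experiment, and Cd70, Tnfsf12, Tnfrsf23 and Cd40 passed in the Bcl11b experiment and not in the Gata3 experiment.

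RNA was sequenced from mouse T helper 2 (Th2) cells, the CD4 T cells of allergic and anti-parasite responses, in 2 experiments of 8 libraries each. In the Bcl11b experiment, naive CD4 T cells came from Bcl11b fl/fl mice that also carried CreERT2, a Cre recombinase that 4-hydroxytamoxifen (4-OHT) switches on. The early knockout (KO) cells had 4 days of Th2 culture with 4-OHT, and the early wild-type (WT) cells had the same culture without it. The late cells had 4 days of Th2 culture, 1 day of rest with IL-2, and then 4 more days of Th2 culture with 4-OHT (KO) or without it (WT). All 4 groups therefore carried the floxed gene and the Cre, and exposure to 4-OHT and loss of Bcl11b cannot be told apart. What drives the CreERT2 gene and the age of the mice are not given by the labels. For the Gata3 experiment they name early WT, early KO, late WT and late KO Th2 cells and do not give the strain, the allele or the culture. Each of the 8 groups had 2 libraries. Binding of Bcl11b and GATA3 was measured by chromatin immunoprecipitation (ChIP) in late WT Th2 cells, with 1 library per antibody and 1 input library.

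TNF superfamily ligands are mostly trimeric membrane proteins of activated immune cells, some of which are shed, and each binds 1 or a few receptors. Receptors with a death domain, such as Fas, can start apoptosis, and the others recruit TRAF adaptors and activate NF-kB. In T cells the receptors OX40 (Tnfrsf4), 4-1BB (Tnfrsf9), GITR (Tnfrsf18), CD30 (Tnfrsf8) and CD27 give costimulatory signals after the T cell receptor is engaged. GATA3 drives the Th2 programme, and Bcl11b is a zinc-finger factor that T cell precursors need to commit to their lineage.

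Libraries held 4687559 to 14577958 gene reads (Bcl11b experiment) and 5117529 to 9892744 (Gata3 experiment). Both early WT libraries of the Bcl11b experiment differed from the rest: gene reads were 20.7% and 16.9% of the total that their deposited RPKM values imply, against at least 40.7% in the other 14 libraries. Odorant and vomeronasal receptor transcripts, 1458 in all, had 3.77 and 4.86 reads per kb there, against at most 0.507 elsewhere. In the Gata3 experiment, early and late WT libraries of the same number differed less from each other (mean chi-square per gene of 4.50 and 2.63) than the replicates of either WT group did (13.8 and 14.6), and all were kept as separate libraries. Bcl11b fell by 1.11 ± 0.28 (log2, SE; edgeR, adjusted p = 0.0185) in early Bcl11b KO and differed by -0.59 ± 0.28 in late KO (adjusted p = 0.419). Gata3 fell by 1.53 ± 0.11 (adjusted p = 6.36e-06) in early Gata3 KO and by 0.40 ± 0.11 in late KO (adjusted p = 0.0388), where it was at 1085 and 943 CPM against 1365.5 and 1316 CPM. Leaving out early KO replicate 2 ended the Bcl11b call (adjusted p = 0.0830), and leaving out late WT replicate 1 or 2 or late KO replicate 2 ended the late Gata3 call (0.157, 0.130 and 0.133). The late Gata3 call was also lost with only the 4 late libraries fitted (0.106) and with the WT libraries of 1 number summed (0.0717), and the early Bcl11b call without the filter (0.0591) and in limma on log2(RPKM + 1), where the value was 0.047. The labels do not name the deleted exons, and reads from other exons say nothing of a deletion. The 5 T cell markers summed to 2054 to 6001 CPM in the Bcl11b experiment and to 3093 to 4212 CPM in the Gata3 experiment. Early Bcl11b cells had 4043 and 3586 CPM (KO) against 2620 and 2054 CPM (WT). Late Bcl11b cells had 6001 and 5509 CPM (KO) against 3026 and 3202 CPM (WT). Il4, Il5, Il13 and Gata3 were detected in all 16 libraries. In late Bcl11b cells they summed to 5229 and 4924 CPM (KO) against 2723 and 3324 CPM (WT). The part of such differences in the member results was not tested.

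Values per library are CPM, read counts scaled to a common library size with TMM factors within an experiment, and are not set against each other across the experiments. Changes are log2 fold changes ± SE from edgeR's quasi-likelihood test, adjusted by Benjamini-Hochberg over all genes tested, and "rose", "fell" or "called" means an adjusted p under 0.05. Replicate numbers are those of the labels, which do not say that replicates came from separate cultures or mice, so a p-value covers only the spread between these samples, which may be technical. In bulk RNA, fewer cells of a type and less RNA per cell cannot be told apart.

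The 3 stretches below are shown because they lie upstream of members whose levels changed and because each lies wholly under both a Bcl11b and a GATA3 peak. Each is the 250 bases before a RefSeq transcription start (mm10, GRCm38.p6), and capitals mark matches to GATAA (GATA factors), TGANTCA (AP-1) or the NF-kB consensus, searched on both strands together with TGTGGT (RUNX). Tnfrsf9 is chr4:150927749-150927998 on the plus strand, upstream of the start that the peak lists use and within the gene model of a longer transcript. Tnfrsf8 is chr4:145315165-145315414 and Tnfsf14 is chr17:57194182-57194431, both on the minus strand.
Tnfrsf9: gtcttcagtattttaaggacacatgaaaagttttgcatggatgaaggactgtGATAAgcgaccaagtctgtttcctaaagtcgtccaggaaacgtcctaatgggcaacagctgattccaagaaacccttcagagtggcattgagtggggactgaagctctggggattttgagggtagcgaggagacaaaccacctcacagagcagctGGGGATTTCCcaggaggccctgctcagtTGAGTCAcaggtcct
Tnfrsf8: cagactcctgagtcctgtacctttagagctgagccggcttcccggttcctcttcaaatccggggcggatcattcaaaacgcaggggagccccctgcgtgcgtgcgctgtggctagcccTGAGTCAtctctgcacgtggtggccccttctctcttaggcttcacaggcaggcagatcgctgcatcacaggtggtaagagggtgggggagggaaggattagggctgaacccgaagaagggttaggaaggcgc
Tnfsf14: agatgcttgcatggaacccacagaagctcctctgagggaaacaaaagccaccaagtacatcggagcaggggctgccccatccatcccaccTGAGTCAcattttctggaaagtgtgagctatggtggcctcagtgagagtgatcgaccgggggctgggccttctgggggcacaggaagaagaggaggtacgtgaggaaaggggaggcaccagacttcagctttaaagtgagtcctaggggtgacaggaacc

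These windows share the AP-1 motif as TGAGTCA. Of the 30 windows that RefSeq gives for 27 members, 4 lay wholly under peaks of both factors: the 3 above and 1 of the 2 windows of Tnfsf13b, which overlaps the exon of another transcript and is not printed. All 4 held TGANTCA, which 10.3% of the 380 windows under both peaks genome-wide and 6.75% of all 32851 windows held. Among the member windows, TGANTCA was in 6 of 30 (20.0%), the NF-kB consensus in 3 (10.0%, against 1.41% of all windows), GATAA in 3 (10.0%, against 22.6%) and TGTGGT in 2 (6.67%, against 14.05%). A match is a description of the letters and not a measured site.

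Per kb of transcript, Tnfrsf9, Tnfrsf18 and Tnfrsf4 were the 3 highest members in 7 of the 8 groups. In late WT cells of the Bcl11b experiment, their means were 596 (Tnfrsf9), 549.7 (Tnfrsf18) and 216 (Tnfrsf4) CPM per kb, and the next member, Tnfrsf8, was at 148. In late Bcl11b KO, Tnfrsf8 (169) and Tnfrsf4 (167) were level. In late WT cells of the Gata3 experiment the 3 were at 1098 (Tnfrsf9), 1086 (Tnfrsf18) and 879 (Tnfrsf4) CPM per kb, and Tnfrsf8 was at 162. The ligands were lower: the highest ligand in late WT cells was Tnfsf8 at 51.5 CPM per kb in the Bcl11b experiment and Ltb at 53.6 in the Gata3 experiment. At the other end, Tnfsf13, Tnfrsf11a and Ltbr, all outside the tests, had at most 12.8, 20.4 and 5.32 CPM in any library, and the highest of the first 2 were both in early WT replicate 1 of the Bcl11b experiment.

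**Figure D1:**
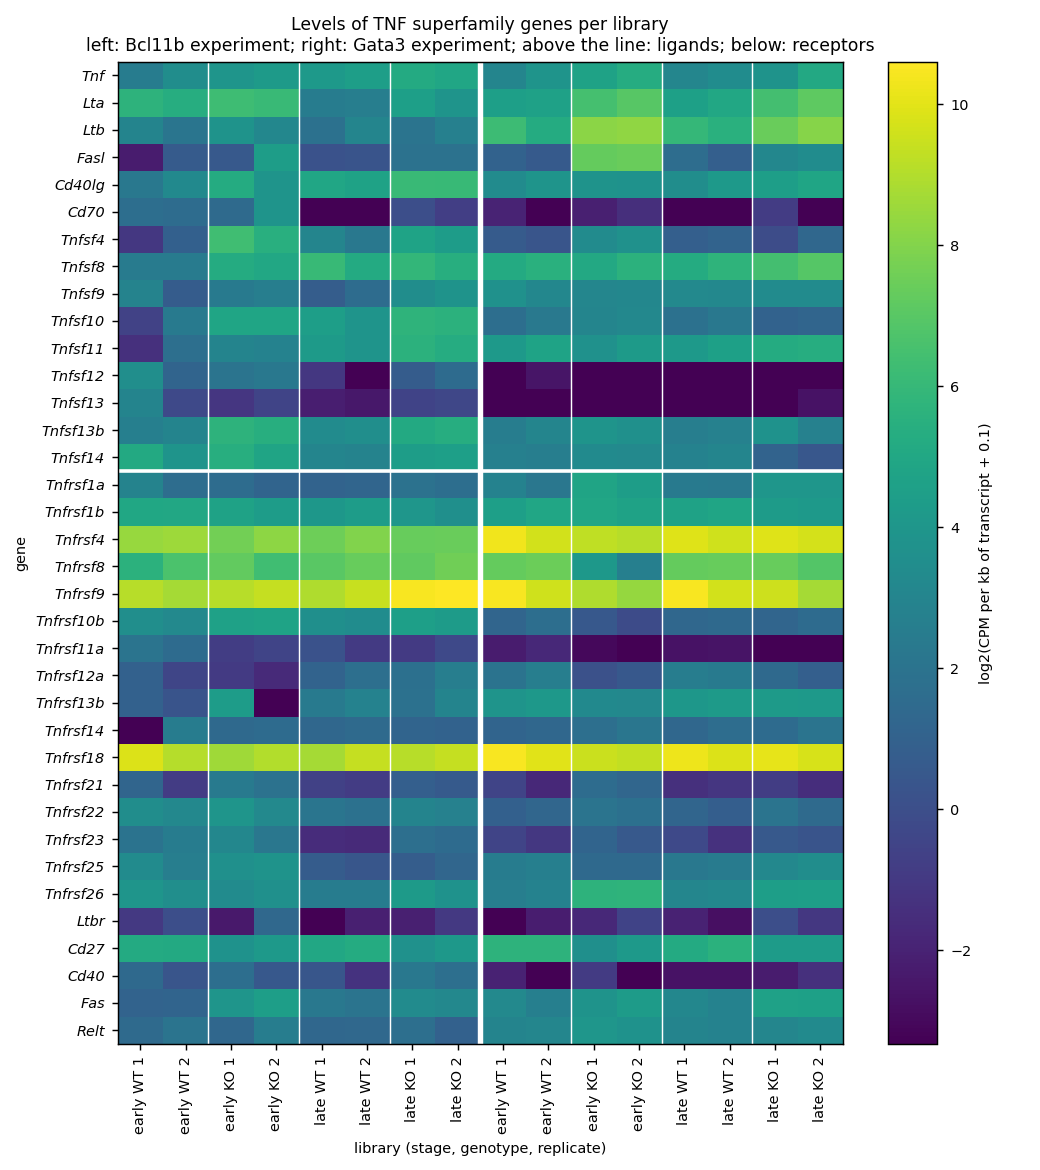
Levels of the 36 members in the 16 RNA libraries, as log2 of CPM per kb of transcript plus 0.1 (colour), with 2 columns per group, the Bcl11b experiment left of the wide white line and ligands above the horizontal one. Tnfrsf9, Tnfrsf18 and Tnfrsf4 form the brightest rows, and Tnfsf12 and Tnfsf13 were at or near 0 in the Gata3 experiment.

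In early Bcl11b KO, 9 members rose and 1 fell of 33 tested, where 10.3% of 10870 genes rose and 11% fell (21.3% called). Ligands made up 7 of the 9 rises. Both WT libraries of this comparison had the low share of gene reads and high receptor reads given above. Deletion and these traits cannot be told apart here. The overlap with early Gata3 KO and the Bcl11b stage difference share this limit. In 6 of the 33 tested members, early WT reads were under 2 times the odorant and vomeronasal receptor level. These were Fasl, Tnfsf4, Tnfsf11, Tnfrsf12a, Tnfrsf13b and Tnfrsf21. In late Bcl11b KO, 5 rose and none fell of 33, where 1.78% of genes rose and 0.552% fell (2.34% called). In early Gata3 KO, 13 rose and 9 fell of 29, where 14.4% of 10601 genes rose and 16.3% fell (30.8% called). In late Gata3 KO, 9 rose and 5 fell of 29, where 8.51% rose and 5.55% fell (14.1% called). The median log2 fold change over the members tested was 0.65, 1.18, 0.58 and 0.33 in these 4 comparisons, beside medians of all genes tested between -0.01 and 0.01. The late Bcl11b median was the same with Cd70, which had no read in late WT, at its lower bound. Because a gene that is high in only 1 group can pass the filter through that group, these counts and medians describe the members and support nothing further.

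By role, 7 of 14 ligands rose and none fell in early Bcl11b KO, and 2 of 14 rose in late Bcl11b KO. In early Gata3 KO 7 of 12 ligands rose and none fell, while 6 of 17 receptors rose and 9 fell. In late Gata3 KO 5 ligands rose and 2 fell of 12, and 4 receptors rose and 3 fell of 17. Called in both early comparisons were 7 members, 70.0% of the early Bcl11b calls and 31.8% of the early Gata3 calls: Fasl, Tnfsf4, Tnfsf10, Tnfsf13b and Fas rose in both, Cd27 fell in both, and Tnfrsf10b rose in Bcl11b KO and fell in Gata3 KO. Over all genes, 839 were called in both, 36.3% and 25.7% of the calls, and 457 of these moved in the same direction. Lta and Tnfrsf26 rose in both late comparisons, 40.0% of the late Bcl11b calls and 14.3% of the late Gata3 calls, where 68 of all genes were called in both (26.8% and 4.56%). Of those 68 genes, 49 moved in the same direction. These pairs of comparisons share no library. Over the 4 KO comparisons Cd70, Tnfsf9, Tnfsf12, Tnfrsf14 and Cd40 were tested and never called.

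**Figure D2:**
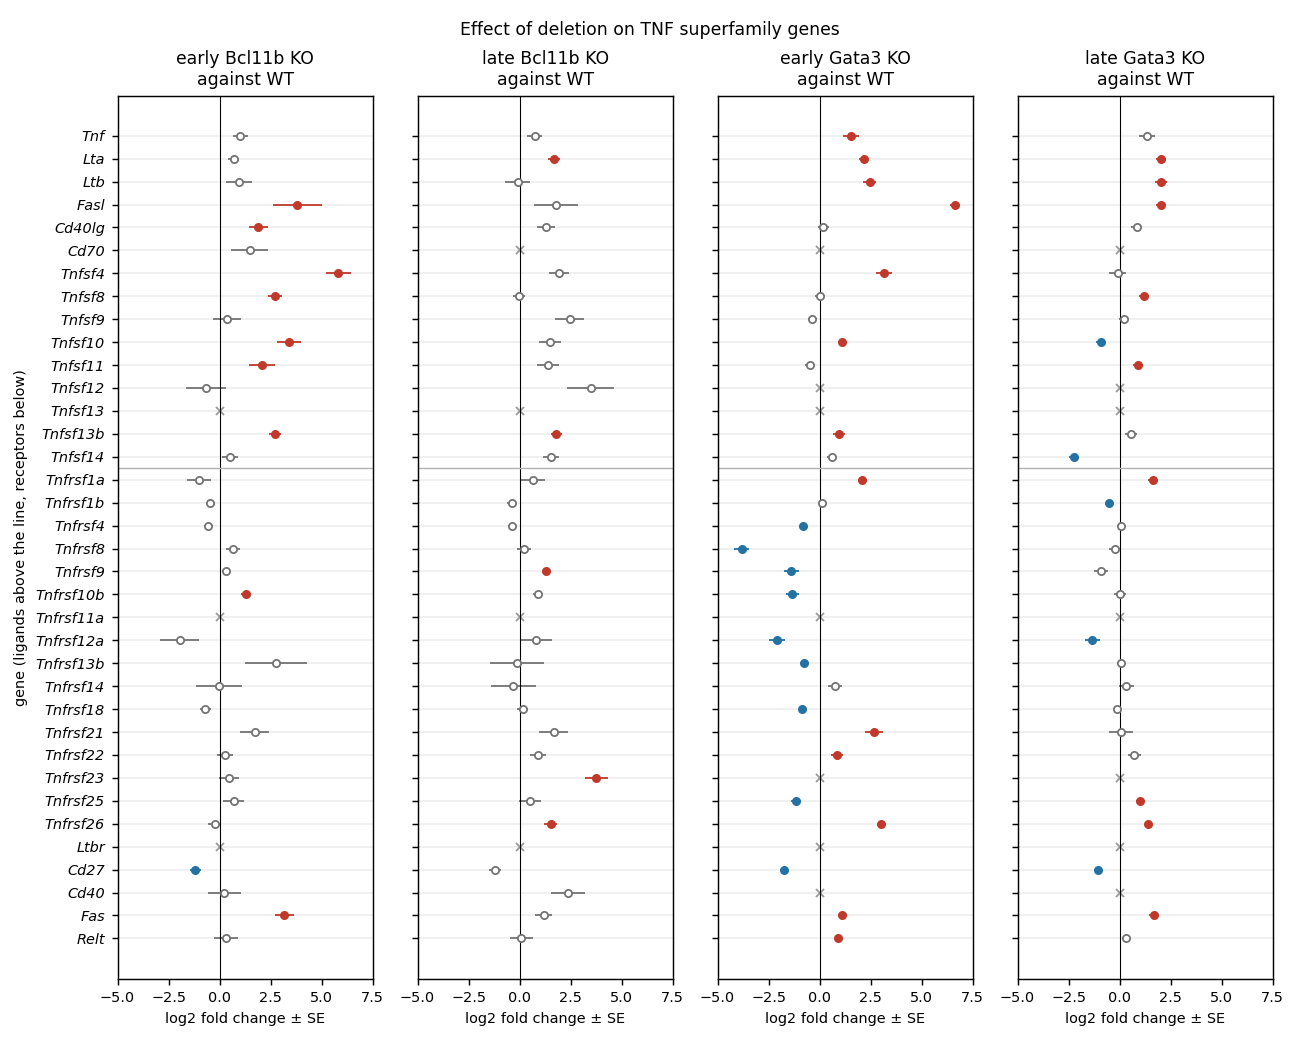
Log2 fold change of each member in the 4 KO comparisons, on 1 shared axis range, with bars of 1 SE. Filled red points rose and filled blue points fell at an adjusted p under 0.05, open points were not called, and crosses at 0 mark members not tested and Cd70 in late Bcl11b KO, whose WT libraries had no read. Blue points are receptors in early Gata3 KO, and in late Gata3 KO they include the ligands Tnfsf10 and Tnfsf14.

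Fasl, which encodes the Fas ligand that kills Fas-bearing cells, showed the largest called change of a member in early Gata3 KO. It was at 3.78 and 2.74 CPM (early WT) and 309 and 329.9 CPM in early Gata3 KO. That is a rise of 6.61 ± 0.24 (adjusted p = 2.47e-07), or 98.0-fold, and the KO libraries sat close together and far above WT. In late cells Fasl was at 5.89 and 3.40 CPM (WT) and 16.6 and 21.05 CPM (Gata3 KO), a rise of 2.03 ± 0.24 (adjusted p = 0.000465). The early libraries also held 247 and 253 CPM over the 3 NK cell markers Ncr1, Eomes and Klrb1c, against 1.35 and 0.374 CPM in early WT. Eomes at 205 and 207 CPM and Klrb1c at 41.5 and 45.7 CPM made up these sums, and Ncr1, the third marker, was at 0 in all 8 Gata3 libraries, WT included. CD8 T cell markers summed to 39.2 and 31.0 CPM in early Gata3 KO, against 11.5 and 8.35 CPM in WT. In late Gata3 KO the NK cell markers summed to 5.84 and 9.42 CPM against 0.827 and 0.532 CPM in late WT, and the CD8 T cell markers to 24.5 and 19.6 CPM against 11.9 and 10.9 CPM. The part of these cell types in the Fasl results of either stage was not tested.

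In the Bcl11b experiment the Fasl result rested on 1 library. Early Bcl11b KO held 2.72 and 41.1 CPM and early WT held 0.206 and 2.93 CPM, so the groups overlapped. The early WT libraries together had 15 Fasl reads, where the level of odorant and vomeronasal receptor transcripts in them gives 16.7 for a transcript of its length. The rise of 3.80 ± 1.21 (adjusted p = 0.0469) became 0.79 without early KO replicate 2 (adjusted p = 0.612) and 2.90 without early WT replicate 1 (adjusted p = 0.161). Without early WT replicate 2 it was 6.66, and without early KO replicate 1 it was 4.71, both still called. The call was lost with only the 4 early libraries fitted (0.123) and with the replicate block (0.0533). CD8 T cell markers summed to 96.0 and 80.3 CPM in early Bcl11b KO against 42.2 and 42.3 CPM (WT), and their part in the rises of early Bcl11b KO was not tested. In late Bcl11b KO, Fasl was at 7.18 and 7.24 CPM against 2.03 and 2.20 CPM, which is 1.76 ± 1.07 and not a call (adjusted p = 0.602).

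Fas, the death receptor for Fas ligand, rose in 3 of the 4 comparisons. It was at 3.09 and 3.14 CPM (early Bcl11b WT) and 22.9 and 33.5 CPM (early KO), a rise of 3.17 ± 0.48 (adjusted p = 0.00141). In early Gata3 cells it moved from 13.8 and 9.48 CPM in WT to 20.9 and 29.3 CPM (KO), a rise of 1.11 ± 0.23 (adjusted p = 0.00486) that did not stand when early KO replicate 2 was left out (adjusted p = 0.0524). In late Gata3 cells it moved from 12.7 and 10.5 CPM to 37.6 and 35.9 CPM, a rise of 1.66 ± 0.23 (adjusted p = 0.0012). In each of these the KO libraries lay above both WT libraries. Late Bcl11b KO had 15.6 and 13.5 CPM against 6.997 and 5.88 CPM, which is 1.18 ± 0.43 and not a call (adjusted p = 0.232).

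Tnfsf10 encodes TRAIL, a ligand that induces apoptosis through the receptor encoded by Tnfrsf10b. In early Bcl11b cells Tnfsf10 was at 2.88 and 24.7 CPM (WT) and 144 and 146 CPM (KO), a rise of 3.39 ± 0.60 (adjusted p = 0.00334). The value was 2.55 without early WT replicate 1 and 5.64 without early WT replicate 2, and it stayed called in both. In the Gata3 experiment the direction differed by stage: early KO had 40.2 and 43.9 CPM against 15.5 and 23.6 CPM (WT), a rise of 1.10 ± 0.21 (adjusted p = 0.00322). Late Gata3 KO had 9.94 and 11.2 CPM against 17.7 and 23.1 CPM, a change of -0.93 ± 0.23 (adjusted p = 0.0257). The late fall was lost without late WT replicate 2 (adjusted p = 0.154) or late KO replicate 1 or 2 (0.107 and 0.0793) and in limma on log2(RPKM + 1) (0.0580), and the stage difference of -2.03 ± 0.32 (adjusted p = 0.00296) was called without any 1 library.

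Tnfrsf10b moved in opposite directions in the 2 early comparisons. In Bcl11b cells it was at 36.4 and 29.5 CPM (early WT) and 78.7 and 84.3 CPM (early KO), a rise of 1.30 ± 0.25 (adjusted p = 0.00508). In Gata3 cells it was at 7.02 and 9.97 CPM (early WT) and 4.14 and 2.52 CPM (early KO), a change of -1.35 ± 0.32 (adjusted p = 0.00925). Neither pair of groups overlapped, and the Gata3 fall was lost without early WT replicate 2 (adjusted p = 0.0659) or early KO replicate 2 (0.0825). The effects of the 2 experiments were not tested against each other.

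Tnf, Lta and Ltb, which encode TNF and the lymphotoxins and lie side by side on chromosome 17 (chr17:35194507-35205578 from Ltb to Lta), rose together in early Gata3 KO. Lta was at 31.7 and 35.0 CPM (early WT) and 125 and 177 CPM (early KO), a rise of 2.18 ± 0.25 (adjusted p = 0.000115). Ltb was at 80.8 and 40.9 CPM against 320.3 and 342 CPM, a rise of 2.45 ± 0.31 (adjusted p = 0.000214). Tnf, at 12.8 and 23.8 CPM against 42.6 and 63.9 CPM, rose by 1.53 ± 0.39 (adjusted p = 0.0148), a call lost without early WT replicate 1 (0.0948) or early KO replicate 2 (0.118). All KO libraries of these genes lay above the WT libraries. In late cells Lta (33.7 and 45.0 CPM in WT, 121 and 193 CPM in KO) and Ltb (67.3 and 50.1 CPM in WT, 185 and 292 CPM in KO) rose by 2.00 ± 0.25 and 2.03 ± 0.31 (adjusted p = 0.000651 and 0.00202). Tnf was at 13.5 and 17.6 CPM (late WT) and 23.2 and 54.0 CPM (late KO), a difference of 1.34 ± 0.40 that missed the threshold (adjusted p = 0.0518). The stage differences of Tnf, Lta and Ltb were -0.19, -0.17 and -0.42, and none was called.

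In the Bcl11b experiment Lta rose in late KO and Ltb did not. Lta was at 7.70 and 8.29 CPM (late WT) and 31.5 and 20.2 CPM (late KO), a rise of 1.70 ± 0.30 (adjusted p = 0.0153). That call was lost without late WT replicate 1 or 2 or late KO replicate 1 (rises of 1.64, 1.75 and 1.34). Limma on log2(RPKM + 1) also ended it (adjusted p = 0.0626). Ltb was at 3.85 and 8.65 CPM against 4.41 and 7.34 CPM, a difference of -0.09 ± 0.62 (adjusted p = 0.994). Tnf was at 29.1 and 35.7 CPM against 58.5 and 48.8 CPM, a difference of 0.73 ± 0.35 (adjusted p = 0.441). In early cells Lta was higher in both genotypes, at 70.4 and 55.9 CPM in WT and 106 and 96.8 CPM (KO), a difference of 0.68 ± 0.28 (adjusted p = 0.111).

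Tnfrsf1a and Tnfrsf1b encode the TNF receptors 1 and 2, of which receptor 1 carries a death domain. In Gata3 cells Tnfrsf1a was at 15.4 and 9.85 CPM (early WT) and 60.3 and 46.9 CPM (early KO), a rise of 2.09 ± 0.21 (adjusted p = 5.17e-05). Late cells had 11.5 and 10.6 CPM in WT and 33.9 and 34.1 CPM (KO), a rise of 1.62 ± 0.22 (adjusted p = 0.00104). Tnfrsf1b, at 127 and 145 CPM in late Gata3 WT and 99.2 and 90.1 CPM in late KO, fell by 0.53 ± 0.15 (adjusted p = 0.0452), and any 1 of the 4 late libraries left out ended that call (0.0656 to 0.234), as did limma on log2(RPKM + 1) (0.0732). Early Gata3 KO had 150.5 and 129.6 CPM of Tnfrsf1b against 114 and 149 CPM, a difference of 0.09 ± 0.15. Neither receptor was called between KO and WT in the Bcl11b experiment, where Tnfrsf1a ranged from 4.41 to 15.9 CPM and Tnfrsf1b from 59.3 to 162 CPM.

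Tnfsf14, the ligand LIGHT, fell in late Gata3 KO. It was at 13.03 and 14.99 CPM (late WT) and 3.90 and 2.41 CPM (late KO), a change of -2.22 ± 0.26 (adjusted p = 0.000435). In early Gata3 cells the KO libraries, at 18.3 and 17.1 CPM, lay above WT at 12.4 and 11.2 CPM, which is 0.58 ± 0.21 and not a call (adjusted p = 0.064). The change between the stages was -2.80 ± 0.33 (adjusted p = 0.000673). In late Bcl11b cells Tnfsf14 went the other way, from 14.6 and 13.6 CPM in WT to 39.8 and 42.4 CPM (KO), which is 1.54 ± 0.39 and not a call (adjusted p = 0.0714). Its receptors were low: Tnfrsf14 (HVEM) stayed between 0 and 5.03 CPM, with 0 in early Bcl11b WT replicate 1, and Ltbr between 0 and 5.32 CPM.

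**Figure D3:**
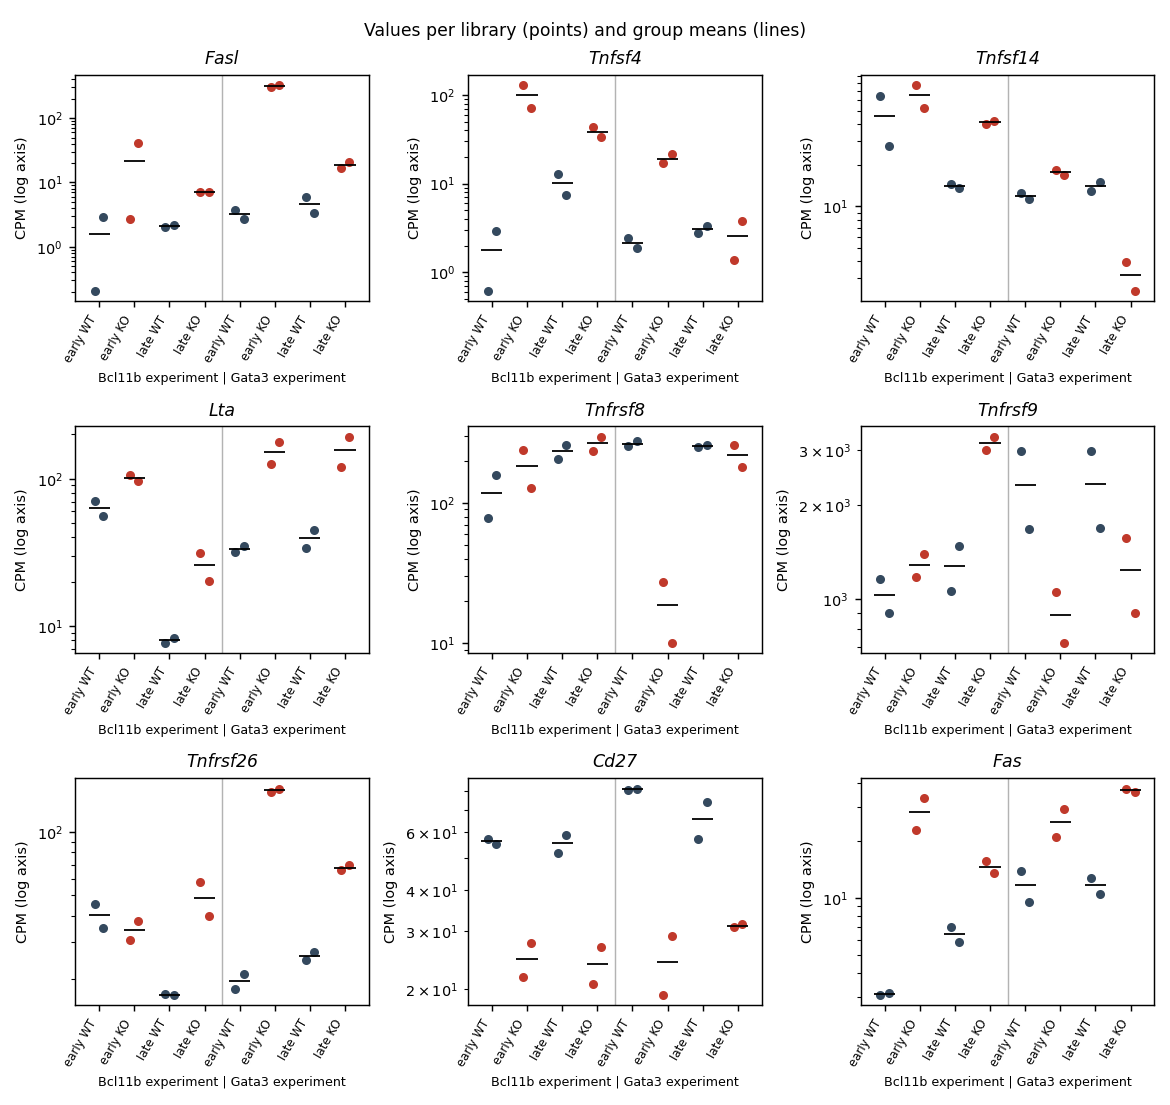
CPM per library on a log axis for 9 members whose results are given gene by gene (points; 2 per group, WT dark and KO red) with the mean of each group (line), the Bcl11b experiment left of the grey line. Fasl in early Gata3 KO stands at 309 and 329.9 CPM, Tnfrsf8 falls to 27.2 and 10.1 CPM in the same libraries, and Cd27 is lower in every KO group than in its WT group.

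Tnfsf4 encodes OX40 ligand, the partner of OX40 (Tnfrsf4), and it had the largest rise of a member in early Bcl11b KO. Early WT held 0.618 and 2.93 CPM and early KO held 129.9 and 70.9 CPM, a rise of 5.82 ± 0.61 (adjusted p = 0.000226). The early WT libraries together had 17 reads, where the receptor level used for Fasl gives 13.9 for this transcript, so the WT level is not set apart from that level and the fold is imprecise. With such reads subtracted from every gene the rise was 7.20 (adjusted p = 0.0007). The rise was 5.09 without early WT replicate 1 and 7.31 without early WT replicate 2. In late Bcl11b cells Tnfsf4 was at 12.9 and 7.44 CPM (WT) and 43.8 and 33.3 CPM (KO), which is 1.92 ± 0.47 and not a call (adjusted p = 0.0645). In Gata3 cells it was at 2.43 and 1.87 CPM (early WT) and 17.0 and 21.4 CPM (early KO), a rise of 3.15 ± 0.37 (adjusted p = 0.000138). Late Gata3 KO had 1.36 and 3.81 CPM and late WT 2.79 and 3.30 CPM, and these groups overlapped (-0.11 ± 0.41, adjusted p = 0.902). Tnfrsf4 itself fell in early Gata3 KO, from 1436 and 938 CPM to 722 and 641 CPM (-0.80 ± 0.19, adjusted p = 0.0113), a call lost without early WT replicate 1 (0.0827) or early KO replicate 2 (0.0957). Late Gata3 KO had 1118 and 971 CPM of Tnfrsf4 against 1123 and 907 CPM in WT.

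Among the other costimulatory receptors, Tnfrsf18 (GITR), which lies next to Tnfrsf4 (chr4:156026322-156028894, with Tnfrsf4 at chr4:156013595-156016613), also fell in early Gata3 KO. It went from 1436 and 1004 CPM to 712 and 648 CPM (-0.84 ± 0.19, adjusted p = 0.00784), and the call was lost without early WT replicate 1 (0.0582) or early KO replicate 2 (0.0717). In early Bcl11b KO, Tnfrsf4 and Tnfrsf18 differed by -0.56 ± 0.22 and -0.70 ± 0.28 and were not called (adjusted p = 0.0968 and 0.0971). Tnfrsf25 (DR3, the receptor for TL1A) fell in early Gata3 KO and rose in late Gata3 KO. It was at 8.91 and 10.1 CPM (early WT) and 4.25 and 4.24 CPM (early KO; -1.16 ± 0.23, adjusted p = 0.00375). In late cells it was at 7.55 and 8.61 CPM (WT) and 14.4 and 17.9 CPM (KO; 1.01 ± 0.21, adjusted p = 0.0109). The late call was lost without late WT replicate 1 (0.0820) or late KO replicate 2 (0.0764).

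Tnfrsf8, which encodes CD30, had the largest fall of a member in early Gata3 KO. It was at 253 and 275 CPM (early WT) and 27.2 and 10.1 CPM (early KO), a change of -3.82 ± 0.35 (adjusted p = 2.79e-05), or 14.1-fold lower, and it was -4.71 without early KO replicate 1. In late cells Tnfrsf8 was at 251 and 260.4 CPM (WT) and 259 and 181 CPM (KO), and these groups overlapped (-0.22 ± 0.30, adjusted p = 0.696). The stage difference was 3.60 ± 0.46 (adjusted p = 0.000991). The Th2 genes Il4, Il5, Il13 and Gata3 summed to 438 and 424 CPM in early Gata3 KO against 1978 and 2023 CPM (early WT), and to 1190 and 1104 CPM in late KO against 2153 and 2057 CPM in late WT. Gata3, the targeted gene, made up most of the late KO sums. The median log2 fold change of the 4 genes was -6.51 in early and -2.94 in late Gata3 KO. Whether the fall of Tnfrsf8 is part of that of the Th2 genes was not tested. In Bcl11b cells Tnfrsf8 ranged from 77.6 to 297 CPM and was not called between KO and WT.

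Tnfsf8 encodes CD30 ligand and behaved differently from its receptor. In early Bcl11b cells it was at 12.1 and 11.9 CPM (WT) and 85.7 and 71.2 CPM (KO), a rise of 2.70 ± 0.33 (adjusted p = 0.000512). In late Bcl11b cells it was at 147 and 82.2 CPM in WT and 131 and 93.6 CPM (KO), and these groups overlapped (-0.03 ± 0.29, adjusted p = 0.998). In Gata3 cells it was at 81.7 and 101 CPM in early WT and 73.8 and 109.9 CPM (early KO; 0.01 ± 0.24). In late cells it was at 84.0 and 120.4 CPM in WT and 196 and 276 CPM (KO), a rise of 1.21 ± 0.24 (adjusted p = 0.00921), lost without late WT replicate 1 (0.0642) or late KO replicate 2 (0.0616).

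Tnfrsf9, the activation-induced receptor 4-1BB, rose in late Bcl11b KO and fell in early Gata3 KO. It was at 1063 and 1481 CPM (late Bcl11b WT) and 2998 and 3316 CPM (late KO), a rise of 1.31 ± 0.20 (adjusted p = 0.00807). Tnfrsf9 lost this call without late WT replicate 1 or late KO replicate 1 or 2 (rises of 1.09, 1.38 and 1.24) and in limma (adjusted p = 0.0710). In early Gata3 cells it was at 2978 and 1673 CPM (WT) and 1057 and 724 CPM (KO), a change of -1.39 ± 0.36 (adjusted p = 0.0164) that was lost without early WT replicate 1 (0.112) or early KO replicate 2 (0.139). Late Gata3 KO had 1575 and 905 CPM against 2993 and 1694 CPM, which is -0.92 ± 0.36 and not a call (adjusted p = 0.131). In both stages of the Gata3 experiment replicate 1 was the higher library of WT and of KO. Its ligand Tnfsf9 was at 2.03 and 3.61 CPM (late Bcl11b WT) and 13.998 and 17.1 CPM (late KO), which is 2.46 ± 0.71 and not a call (adjusted p = 0.116), and it was called in no other comparison.

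Cd27, the receptor for CD70 and a marker of less differentiated T cells, was lower in all 4 KO groups. In early cells of the Bcl11b experiment it was at 57.2 and 55.1 CPM (WT) and 21.8 and 27.7 CPM (KO), a change of -1.18 ± 0.28 (edgeR, adjusted p = 0.0146). In late cells it was at 51.8 and 58.9 CPM (WT) and 20.8 and 26.8 CPM (KO), a difference of -1.22 ± 0.28 that just missed the threshold (adjusted p = 0.0512). In Gata3 cells it fell from 80.5 and 81.2 CPM to 19.3 and 29.1 CPM (early KO; -1.74 ± 0.19, adjusted p = 9.16e-05). It fell from 57.3 and 74.0 CPM to 31.0 and 31.5 CPM (late KO; -1.07 ± 0.19, adjusted p = 0.00541). The KO libraries lay below the WT libraries in each comparison. The early Bcl11b call did not stand without early KO replicate 1 (0.0541), with only the 4 early libraries fitted (0.0922) or without the filter (0.0504), and its value was -0.01 in limma on log2(RPKM + 1) (adjusted p = 0.981), a scale on which the median of all genes lay 0.87 higher. The ligand Cd70 had 0 reads in late Bcl11b WT and 15 in late KO, which makes it at least 6.02-fold higher on a floor of 3 reads over the group.

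Cd40lg encodes CD40 ligand, which helper T cells use to activate B cells and dendritic cells. In early Bcl11b cells it was at 5.76 and 11.9 CPM (WT) and 47.0 and 18.4 CPM (KO), a rise of 1.89 ± 0.47 (adjusted p = 0.0171). Without early KO replicate 1 it was 1.06 (adjusted p = 0.103), without early WT replicate 1 it was 1.45 (0.0845), and without early WT replicate 2 it was 2.50. With only the 4 early libraries fitted the call was lost (0.113). In late Bcl11b cells it was at 37.4 and 31.8 CPM (WT) and 87.5 and 82.7 CPM (KO), which is 1.30 ± 0.43 and not a call (adjusted p = 0.183). Its receptor Cd40, a gene of B cells and other antigen-presenting cells, was between 0.567 and 8.38 CPM in the Bcl11b experiment and at most 0.762 CPM in the Gata3 experiment.

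Tnfsf13b encodes BAFF, a survival factor for B cells, and was the only member called in both Bcl11b comparisons. It was at 10.9 and 12.98 CPM (early WT) and 85.8 and 70.7 CPM (early KO), a rise of 2.71 ± 0.29 (adjusted p = 0.000253). In late cells it was at 17.8 and 19.6 CPM (WT) and 59.1 and 69.9 CPM (KO), a rise of 1.78 ± 0.27 (adjusted p = 0.00863). Tnfsf13b lost the late call without any 1 of the 4 late libraries, where the rise was 1.66 to 1.90. In early Gata3 KO it was at 24.5 and 21.2 CPM against 9.99 and 13.3 CPM, a rise of 0.97 ± 0.29 (adjusted p = 0.0311) lost without early WT replicate 1 or either early KO replicate (0.0796 to 0.162). The 6 macrophage and dendritic cell markers summed to 36.6 to 40.1 CPM in late Bcl11b KO, with none at 0, against 11.1 to 15.95 CPM in late WT. The 5 B cell markers summed to 20.0 to 31.3 CPM against 4.32 to 5.18 CPM. In early Bcl11b cells these lists summed to 15.1 to 27.9 and 92.9 to 126 CPM in KO and to 30.9 to 71.6 and 86.7 to 100.3 CPM in WT, with Csf1r at 0 in both KO libraries. Mast cell markers summed to 41.4 to 43.8 CPM in early KO against 3.71 to 12.8 CPM in WT, with Fcer1a, Mcpt8 and Prss34 at 0 in both KO libraries of the early Bcl11b group. Kit was also at 0 in early KO replicate 1, so the sum there was Cpa3 alone. In early WT, Mcpt8 was at 0 in both libraries, Prss34 in replicate 1 and Fcer1a in replicate 2. The part of such cells in the late Bcl11b results, Tnfsf13b among them, was not tested.

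Of the BAFF and APRIL receptors, Tnfrsf13b (TACI) fell in early Gata3 KO, from 11.2 and 12.6 CPM to 7.19 and 6.64 CPM (-0.78 ± 0.20, adjusted p = 0.0139), a call lost without early WT replicate 2 or either early KO replicate (0.0553 to 0.0883). In early Bcl11b KO its libraries held 15.5 and 0 CPM, and no call was made. Tnfsf11 encodes RANKL, best known for osteoclast formation. It was at 0.618 and 7.33 CPM (early Bcl11b WT) and 17.4 and 15.97 CPM (early KO), a rise of 2.07 ± 0.63 (adjusted p = 0.0402). The value was 1.19 without early WT replicate 1 and 4.73 without early WT replicate 2, and leaving out early KO replicate 1 or 2 ended the call (0.0886 and 0.0657). It was also lost with only the 4 early libraries fitted (0.239), with the replicate block (0.0635) and with reads at the receptor level subtracted (0.0514), a level that gives 19.3 of the 38 early WT reads. In late Gata3 cells Tnfsf11 was at 40.0 and 54.4 CPM (WT) and 84.2 and 92.7 CPM (KO), a rise of 0.91 ± 0.23 (adjusted p = 0.03), lost without late WT replicate 1 or either late KO replicate (0.0733 to 0.174) and in limma (0.0735).

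Tnfrsf12a (Fn14), the receptor for TWEAK, was low and fell in both Gata3 comparisons. It was at 3.65 and 5.86 CPM (early WT) and 0.980 and 1.26 CPM (early KO; -2.08 ± 0.40, adjusted p = 0.00298). In late cells it was at 5.58 and 4.78 CPM (WT) and 2.53 and 1.70 CPM (KO; -1.34 ± 0.37, adjusted p = 0.0391). The late call was lost without any 1 of the 4 late libraries (0.0627 to 0.197), in DESeq2 (0.102) and with only the 4 late libraries fitted (0.0551). Its ligand gene Tnfsf12 had 1 read in the 8 Gata3 libraries together and 0.630 to 19.6 CPM in the Bcl11b libraries other than late WT replicate 2, where it was at 0. Tnfsf12 and Tnfsf13 are neighbours that can be transcribed as 1 message, so reads could be split between them.

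Tnfrsf26, Tnfrsf22 and Tnfrsf23 encode related receptors without a complete signalling tail and lie in a row on chromosome 7 (chr7:143607685-143686436). Tnfrsf26 rose in 3 of the 4 comparisons. It was at 17.96 and 21.2 CPM (early Gata3 WT) and 154 and 160.3 CPM (early KO), a rise of 3.0 ± 0.13 (adjusted p = 3.86e-07). In late Gata3 cells it was at 24.8 and 26.9 CPM (WT) and 65.7 and 69.9 CPM (KO), a rise of 1.39 ± 0.13 (adjusted p = 9.89e-05). In late Bcl11b cells it was at 17.0 and 16.9 CPM (WT) and 57.6 and 40.0 CPM (KO), a rise of 1.52 ± 0.31 (adjusted p = 0.0312), whereas early Bcl11b WT (45.5 and 35.2 CPM) and KO (30.6 and 37.8 CPM) overlapped. The late Bcl11b call was lost without any 1 of the 4 late libraries (0.129 to 0.387), in limma (0.0848), without the filter (0.0618), with the replicate block (0.0540) and with reads at the receptor level subtracted (0.0513). The replicates of each Gata3 group lay close together, and the KO libraries were above WT in all 3 called comparisons.

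Tnfrsf23 rose in late Bcl11b KO, from 0.770 and 0.709 CPM in WT to 10.8 and 9.44 CPM (KO; 3.75 ± 0.56, adjusted p = 0.00834). Tnfrsf23 lost this call without any 1 of the 4 late libraries (rises of 3.65 to 3.85) and in limma (adjusted p = 0.0583). In early Bcl11b cells it was at 12.6 and 18.6 CPM (WT) and 27.8 and 14.7 CPM (KO), and these groups overlapped. Tnfrsf22 was called in 1 KO comparison, early Gata3, from 4.19 and 5.24 CPM to 9.25 and 7.90 CPM (0.86 ± 0.29, adjusted p = 0.0481), and the call was lost without any 1 of the 4 early libraries (0.0840 to 0.216) and in DESeq2 (0.113). Values of these 3 genes are uncertain, because how reads that fit several related genes were counted is not stated by the labels.

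Tnfrsf21 (DR6) and Relt are receptors with less known roles in T cells, and both rose in early Gata3 KO. Tnfrsf21 was at 2.30 and 0.748 CPM (WT) and 10.6 and 8.48 CPM (KO; 2.65 ± 0.45, adjusted p = 0.00141), with values of 3.64 and 2.04 when early WT replicate 1 or 2 was left out. Relt was at 21.5 and 22.9 CPM (WT) and 44.9 and 37.9 CPM (KO; 0.90 ± 0.16, adjusted p = 0.00175). In late Gata3 cells neither was called, with differences of 0.09 ± 0.59 and 0.33 ± 0.16.

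Among the KO comparisons, the late Bcl11b calls of members were the least stable. Leaving out late WT replicate 1 or late KO replicate 1 ended every one of them. Leaving out late WT replicate 2 ended all but Tnfrsf9, and leaving out late KO replicate 2 ended all but Lta. In the fits that ended a call, the rises were 1.34 to 1.75 (Lta), 1.66 to 1.90 (Tnfsf13b) and 1.09 to 1.38 (Tnfrsf9). They were 3.65 to 3.85 for Tnfrsf23 and 1.23 to 1.76 for Tnfrsf26. How many calls over all genes were lost in these fits is not given, so the losses are not read as particular to the members. Limma on log2(RPKM + 1) ended those of Lta, Tnfrsf9, Tnfrsf23 and Tnfrsf26 (0.0583 to 0.0848), and it called 2 members higher and 1 lower, with 1.87% of all genes called. In the other direction, a fit of only the 4 late libraries called 21 members, 20 of them higher in KO, where calls over all genes also rose, to 14.6% (8.72% higher). DESeq2 called 11, 10 higher and 1 lower, with 5.41% of all genes called. Of the 10 early Bcl11b calls, Tnfsf4, Tnfsf8, Tnfsf10, Tnfsf13b, Tnfrsf10b and Fas were made in every alternative fit. Of the 22 early and 14 late Gata3 calls, 13 and 8 were.

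Among 35 genes of TNF receptor signalling and NF-kB, all tested in both experiments, 6 rose and none fell in early Bcl11b KO (17.1% and 0%, beside 10.3% and 11% of all genes), and 1 rose in late Bcl11b KO (2.86%, beside 1.78%). Traf1, an adaptor that NF-kB induces, was at 108 and 99.5 CPM (early Bcl11b WT) and 281 and 279.6 CPM (early KO; 1.43 ± 0.19, adjusted p = 0.000642). In late cells it was at 68.8 and 84.3 CPM (WT) and 151 and 149 CPM (KO; 0.97 ± 0.18, adjusted p = 0.0218), a call lost without any 1 of the 4 late libraries (0.121 to 0.248), in limma (0.128) and without the filter (0.0506). Nfkb2, Nfkbia and Nfkbib, a subunit and inhibitors of NF-kB, rose by 1.76, 1.48 and 1.24 in early Bcl11b KO. The Nfkbib call was lost without early WT replicate 1 (0.0623) or early KO replicate 2 (0.0839) and with only the 4 early libraries fitted (0.0714). In early Gata3 KO 6 of the 35 rose and 4 fell (17.1% and 11.4%), shares close to the 14.4% and 16.3% of all genes. There Birc2, Traf5 and Ripk1, which act at the receptors, rose by 1.05, 1.18 and 0.66, and Bcl3, an atypical IkB protein, fell from 193 and 196 CPM to 106 and 109.9 CPM (-0.85 ± 0.13). In late Gata3 KO 6 rose and none fell (17.1% and 0%, beside 8.51% and 5.55%). Traf1 went from 94.4 and 85.1 CPM to 246 and 221 CPM (1.38 ± 0.13, adjusted p = 0.000144), and Tnfaip3, a feedback inhibitor, from 34.6 and 29.0 CPM to 53.2 and 55.9 CPM (0.78 ± 0.13). Ripk1 and Nfkbia rose by 0.52 and 0.79. The Ripk1 call was lost without late WT replicate 1 (0.122), and that of Nfkbia without late WT replicate 1 or 2 or late KO replicate 2 (0.0718 to 0.124) and in limma (0.0834), and both with only the 4 late libraries fitted (0.0579 and 0.0577).

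Of 10 superfamily genes outside the member list, 1 was tested in each experiment. Tnfrsf11b, the decoy receptor for RANKL, had 1 read over both early Gata3 WT libraries and 121 and 44 reads in the early KO libraries, a ratio of 142 with an exact 95% counting interval of 25.1 to 5645. It rose in early Gata3 KO (adjusted p = 0.00048). Tnfrsf13c, the BAFF receptor of B cells, was the gene tested in the Bcl11b experiment and was not called between KO and WT.

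Between the stages, the KO effect differed for 3 of 33 members in the Bcl11b experiment, where 2.23% of genes had a higher and 1.23% a lower effect in late cells (3.46% called). It differed for 9 of 29 in the Gata3 experiment, where 7.52% had a higher and 4.58% a lower effect (12.1% called). In the Bcl11b experiment the effects on Tnfsf4 (-3.90 ± 0.75, late minus early; adjusted p = 0.0239) and Tnfsf8 (-2.73 ± 0.44; 0.0122) were lower in late cells, and that on Tnfrsf23 (3.31 ± 0.73; 0.037) was higher. All 3 calls were lost without late WT replicate 1 (0.0721 to 0.19) or late KO replicate 2 (0.0915 to 0.166). Those of Tnfsf4 and Tnfrsf23 were lost without late WT replicate 2 (0.0581 and 0.155) or late KO replicate 1 (0.0976 and 0.164), and that of Tnfrsf23 also without the filter (0.0603), with the replicate block (0.0629), with reads at the receptor level subtracted (0.0665) and in limma, where it was 0.14 (0.734). The value for Tnfsf4 was -5.40 without early WT replicate 2 and -3.17 without early WT replicate 1. In the Gata3 experiment the effect was lower in late cells for Fasl, Tnfsf4, Tnfsf10, Tnfsf14 and Tnfrsf26 and higher for Tnfsf8, Tnfsf11, Tnfrsf8 and Tnfrsf25. The value for Tnfsf4 was -4.30 without late KO replicate 2 and that for Tnfrsf8 4.49 without early KO replicate 1. The calls of Tnfsf8 and Tnfsf11 were lost in 5 of the 8 fits that left out 1 library each and in limma (0.116 and 0.0679), and the other 7 stood in all 8.

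**Figure D4:**
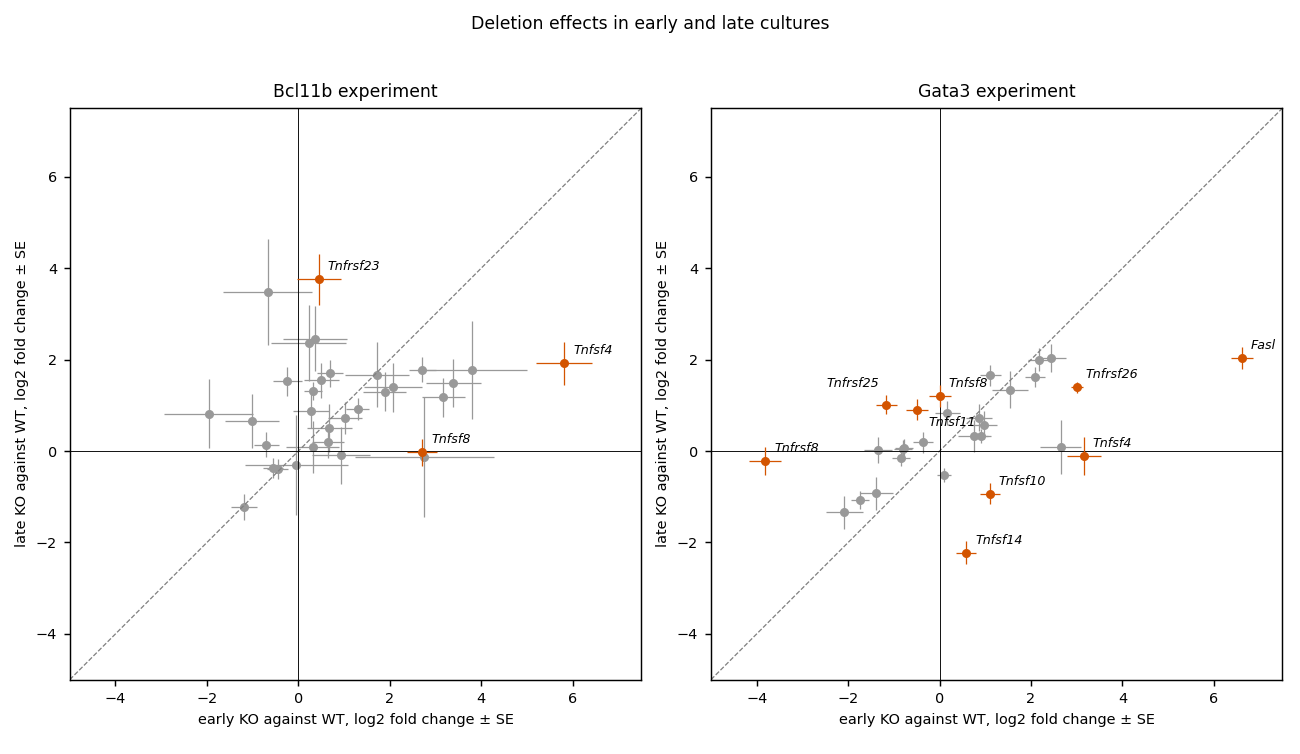
Log2 fold change of KO against WT in early (x axis) and late (y axis) cells, 1 point per tested member with bars of 1 SE, in the Bcl11b experiment (left, without Cd70) and the Gata3 experiment (right). Orange, named points are the 3 and 9 members whose effect differed between stages by the test of the difference, and the dashed line marks equal effects.

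Without a deletion, late and early WT cells of the Bcl11b experiment differed in 17 of 33 members, 7 higher and 10 lower in late cells, where 19.8% of genes were higher and 22.2% lower (41.9% called). Higher in late cells were Tnfsf8 (3.25 ± 0.34), Tnfsf11 (3.25 ± 0.64), Tnfsf10 (2.72 ± 0.59), Tnfsf4 (2.52 ± 0.60), Cd40lg (1.97 ± 0.47), Tnf (1.23 ± 0.37) and Tnfrsf8 (0.99 ± 0.35), of which 6 are ligands. Lower in late cells were Tnfrsf23 (-4.38 ± 0.58), Lta (-2.98 ± 0.31), Tnfrsf25 (-2.55 ± 0.54), Tnfsf14 (-1.70 ± 0.39) and 6 others, among them Cd70, which went from 25 reads to 0 and was at least 24.6-fold lower. The values of Tnfsf4 (1.79 to 3.97), Tnfsf10 (1.87 to 4.91) and Tnfsf11 (2.36 to 5.85) depended on which early WT replicate was kept, that of Tnfsf12 (-5.14) was -3.45 and -5.96 without early WT replicate 1 or 2 and -9.78 and -4.17 without late WT replicate 1 or 2, and that of Tnfsf14 was -0.96 without early WT replicate 1. Without late WT replicate 1 the calls of Tnf, Tnfsf4, Tnfrsf1b, Tnfrsf4, Tnfrsf8, Tnfrsf22 and Tnfrsf26 were lost (0.0541 to 0.167), and without late WT replicate 2 those of Tnf, Tnfrsf8, Tnfrsf22 and Tnfrsf26 (0.0589 to 0.189). Without early WT replicate 1 those of Tnf, Tnfrsf8 and Tnfrsf22 were lost (0.0541 to 0.228). This comparison rests on the 2 early WT libraries that stood apart, and limma on log2(RPKM + 1) called 16 members higher and 3 lower, as it did 65.3% and 6.36% of all genes. Limma ended the calls of Cd70, Tnfsf14 and Tnfrsf25 (0.216, 0.772 and 0.0696) and of Tnfrsf1b, Tnfrsf22 and Tnfrsf26 (0.0557, 0.868 and 0.609). It turned the call of Tnfrsf4 to higher in late cells (0.70, adjusted p = 0.0364). That of Tnf was lost with only the 4 WT libraries fitted (0.0564), that of Tnfrsf8 with the replicate block (0.0548) and with reads at the receptor level subtracted (0.0837), and those of Tnfrsf1b, Tnfrsf4 and Tnfrsf22 without the filter (0.0537 to 0.115). In the Gata3 experiment no member of 29 and no gene of 10601 (0%) was called between late and early WT by edgeR, DESeq2 or limma, and 1 member and 124 genes had an unadjusted p under 0.05. Early and late WT libraries of the same number were closer there than replicates were, and the replicate block also called no gene. The labels do not give their culture, so the early and late WT groups, and the KO comparisons that use them, may not be independent.

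Binding was described from 1 library per antibody, so it has no replicate check and no test. The authors assigned each peak to the gene with the closest transcription start. Of the 36 members 25 had at least 1 Bcl11b peak (32.8% of all 22878 genes did), 27 had a GATA3 peak (38.2%), 22 had both (23.5%), and in 18 the peaks of both overlapped by at least 1 base (15.7%). Of all genes, only 10870 (Bcl11b experiment) and 10601 (Gata3 experiment) passed the filter on low values, against 33 and 29 of the members. Shares among the genes that passed are not given, so the counts are not read as an excess of peaks. Ltb, Tnfsf12, Tnfsf13, Tnfrsf14, Tnfrsf21 and Ltbr had none. The 59 Bcl11b and 111 GATA3 peaks of the members had median fold enrichments of 2.87 and 2.51 in the authors' lists, beside 3.01 and 3.05 over all kept peaks. A peak of the other factor overlapped 50.8% of the Bcl11b peaks and 35.1% of the GATA3 peaks, beside 43.5% and 25.8% of all kept peaks.

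Among the ligands, Tnfsf8 had 4 Bcl11b and 12 GATA3 peaks, Tnfsf11 had 2 and 9, Fasl had 3 and 8, and Tnfsf4 had 1 and 8. The highest GATA3 peak of Fasl (fold 11.9, chr1:161670829-161671741) lay 117209 bases downstream of the start, and its highest Bcl11b peak (4.76) lay 53320 bases downstream. The highest peaks of Tnfsf4 overlapped, at 50901 bases (Bcl11b, 3.54) and 51151 bases (GATA3, 5.52) upstream. Those of Tnfsf13b lay 1587 bases (Bcl11b, 6.96, chr8:10004633-10005457) and 1501 bases (GATA3, 3.94) upstream and also overlapped. Tnf had its GATA3 peak (9.05) within the gene, 639 bases from the start, and Lta had a Bcl11b peak (2.29) at its start and no assigned GATA3 peak.

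Among the receptors, Tnfrsf8 had the most peaks, 8 for Bcl11b and 12 for GATA3, and Tnfrsf9 had 7 and 8. The highest GATA3 fold of any member, 20.9, lay 26937 bases upstream of Tnfrsf23 (chr7:143712307-143713316). Both factors had their only Tnfrsf1a peak at the same place within the gene, at 3755 (Bcl11b, 5.14) and 3789 bases (GATA3, 12.99) from the start. The highest Tnfrsf9 peaks overlapped upstream, at chr4:150923876-150927579 (Bcl11b, 7.71) and chr4:150923901-150924965 (GATA3, 7.98). At Tnfrsf4 the highest GATA3 peak (10.1) lay 5018 bases upstream, and at Tnfrsf26 both highest peaks (Bcl11b 3.03, GATA3 8.41) lay within the gene, 2443 and 2431 bases from the start. Fas had 1 GATA3 peak (9.61), 8500 bases from the start, and no Bcl11b peak.

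In late Bcl11b KO all 5 members that rose had a Bcl11b peak, as did 25 of the 33 tested. In late Gata3 KO 7 of the 9 members that rose and 4 of the 5 that fell had a GATA3 peak, as did 23 of the 29 tested. In early Gata3 KO these were 10 of 13 and 8 of 9. In early Bcl11b KO 6 of the 9 that rose and the 1 that fell had a Bcl11b peak, again beside 25 of the 33 tested. Such shares among all genes called or tested are not given, so these counts describe the members only. The peaks come from late WT cells, so the early comparisons have no binding data of their own stage.

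**Figure D5:**
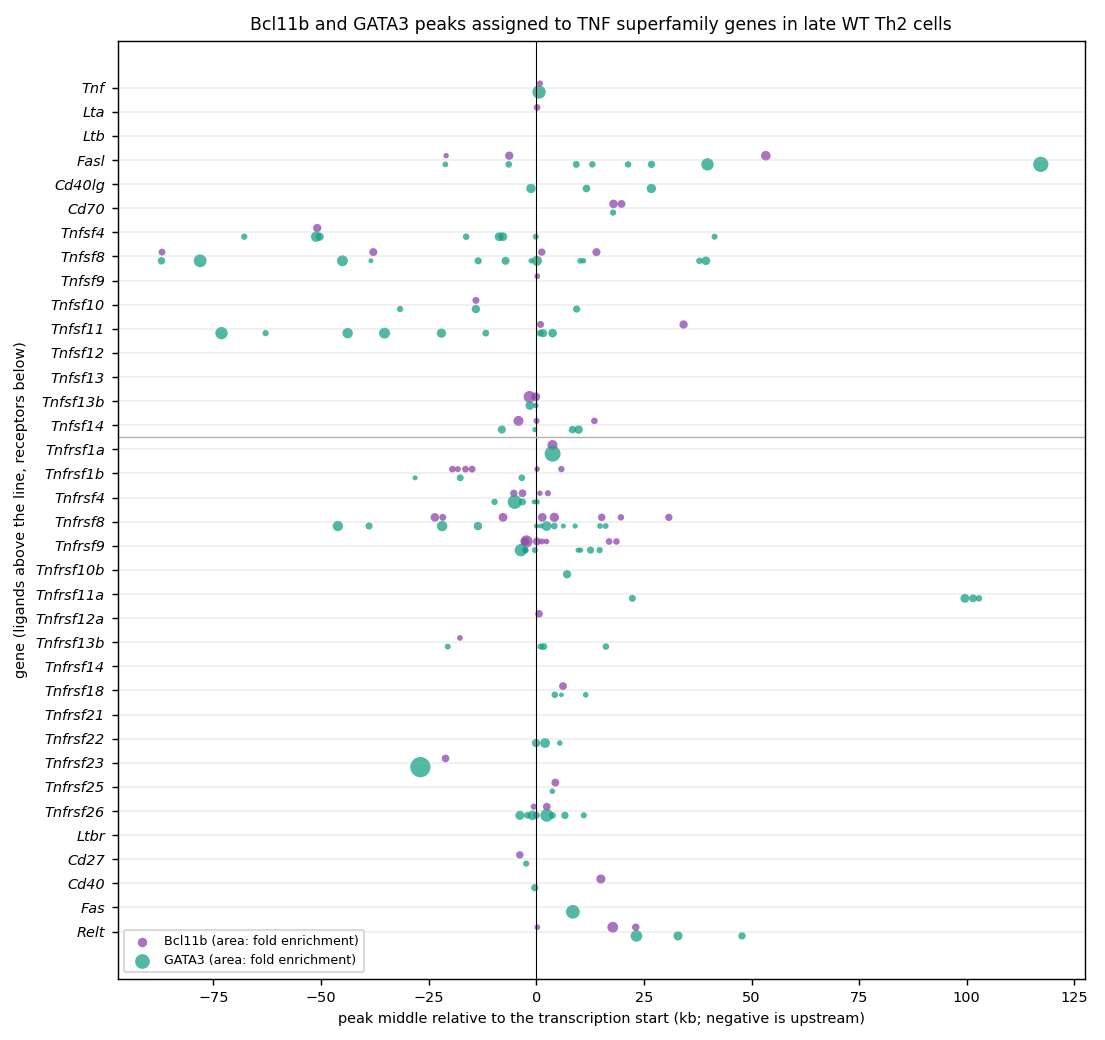
Peaks assigned to each member in late WT cells by distance of the peak's middle from the transcription start (kb, negative is upstream), Bcl11b in purple and GATA3 in green, with the dot area in proportion to the authors' fold enrichment. The highest dot is the GATA3 peak upstream of Tnfrsf23 (20.9), and 6 members have no dot.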

How the data were processed

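Each RNA table holds, per the file headers, a read count and an RPKM value per transcript, computed by the authors, and each peak list a read count, fold enrichment (a ratio), a score (-10 log10 of the p-value) and an FDR in percent per peak, as deposited by the authors. Per the labels' protocols, 10 ng of RNA was amplified with the NuGEN Ovation V2 kit. Per the submitters' processing notes the tools were CASAVA 2.18, TopHat2 2.0.13, Bowtie, Novoalign and MACS 1.4.2 with mm10. No source used here gives the strand or multi-mapping settings. Amplified reads are not independent molecules, so intervals and floors cover counting error only.

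The members and gene lists were chosen with earlier results of these data known. Each gene was represented by its transcript with the highest read total, and genes reaching an RPKM of 1 in at least 2 libraries were tested. Each experiment was TMM-scaled and fitted alone, with all 8 libraries, by edgeR 4.0.16 (quasi-likelihood test, limma 3.58.1, R 4.3.3) and Benjamini-Hochberg adjustment. The test was tried on simulated data first. Members called in a KO comparison or stage difference were named with every library's value, and from each other list up to 4 called genes with the smallest p per comparison. Alternatives were DESeq2 1.42.0, limma on log2(RPKM + 1), other size factors, no filter, the longest transcript, background reads subtracted, only the 4 libraries compared, a replicate block and each library left out. Peaks over an input peak (2 per factor among the members') were left out, and an overlap needed at least 1 base. Tables and figures used Python 3.11.15, numpy 2.4.6, pandas 2.3.3, scipy 1.17.1 and matplotlib 3.10.9. Promoter sequences are RefSeq's (GRCm38.p6), and peak and protein sequences were not used here.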

Additional observations from a re-analysis of the deposited data

Results flagged for a closer look

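The effect of a deletion differed between late and early cells in 12 results by the edgeR test of the difference itself (late minus early, log2; adjusted p as given with each experiment). In the Bcl11b experiment the differences were -3.90 for Tnfsf4, -2.73 for Tnfsf8 and 3.31 for Tnfrsf23 (adjusted p = 0.0239, 0.0122 and 0.037). In the Gata3 experiment the effect was lower in late cells by -4.58 for Fasl (adjusted p = 9.02e-05), -3.26 for Tnfsf4 (0.0049), -2.03 for Tnfsf10 (0.00296), -2.80 for Tnfsf14 (0.000673) and -1.61 for Tnfrsf26 (0.000438). It was higher in late cells by 1.20 for Tnfsf8 (0.0486), 1.40 for Tnfsf11 (0.0245), 3.60 for Tnfrsf8 (0.000991) and 2.18 for Tnfrsf25 (0.0019). Tnfsf10 and Tnfrsf25 were called in opposite directions at the 2 stages of the Gata3 experiment. In that experiment the targeted gene itself fell less in late cells, with a difference of 1.13 for Gata3 (adjusted p = 0.00164), and its part in these differences was not tested.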

How the results depend on the processing

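The number of members called in early Bcl11b KO (10) was 23, all higher, in limma on log2(RPKM + 1) and 6 when only the 4 libraries compared were fitted, where 63.5% and 9.38% of all genes were called. In late Bcl11b KO (5) it was 11 in DESeq2, 3 in limma and 21 with only the 4 libraries compared (5.41%, 1.87% and 14.6% of all genes). The Bcl11b stage difference (3) gave 5 in DESeq2 and 13 in limma (8.30% and 56.0% of all genes). The Gata3 stage difference (9) gave 14 without the filter and 18 with early and late WT libraries of 1 number summed, a setting chosen after seeing the data (12.8% and 24.0% of all genes). With 1 library left out, the counts ranged from 8 to 14 (early Bcl11b), 0 to 1 (late Bcl11b), 0 to 7 (Bcl11b stage difference), 10 to 22 (late against early WT, Bcl11b experiment), 13 to 19 (early Gata3), 9 to 12 (late Gata3) and 7 to 10 (Gata3 stage difference). Shares of all genes called with 1 library left out are not given. Whether calls over all genes moved alike cannot be read here, so these ranges describe the members only. A lone library left in a group is assumed to vary like the others. The causes of these differences were not tested. The counts of members with peaks of Bcl11b (25), GATA3 (27) and both (22) were 23, 24 and 18 at an FDR of at most 1%, and 19, 23 and 15 within 10 kb of the start. Shares of all genes under these stricter rules are not given, so whether they became lower alike cannot be read here.

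Limma on log2(RPKM + 1) moved the median of all genes by 0.87 (early Bcl11b), 1.06 (late against early WT) and -1.03 (stage difference). Values with a turned sign follow for members and named genes that edgeR or limma called. Turned signs of genes that neither called are not listed. In early Bcl11b KO they were 0.64 for Tnfrsf1b, 0.73 for Tnfrsf26 and 0.047 for Bcl11b. In the Bcl11b stage difference they were -1.16 for Tnfrsf1b, -1.14 for Tnfrsf4 and -1.17 for Bcl3. In late against early WT they were 0.84 for Ltb, 0.57 for Tnfrsf1b, 0.70 for Tnfrsf4, 1.07 for Tnfrsf18, 0.050 for Tnfrsf22, 0.16 for Tnfrsf26 and 1.32 for Cd27. Set against the limma medians of all genes (0.86, -1.04 and 1.04), these values lay below the median in early Bcl11b KO, as in the edgeR test. The 3 of the stage difference stayed turned, and in late against early WT Cd27 and Tnfrsf18 stayed turned while the other 5 lay below the median. Without early WT replicate 2 (or 1), Tnfrsf14 was 7.77 (or -1.04) in early Bcl11b KO and 7.63 (or -1.13) in late against early WT, since early WT replicate 1 had no read. Without early KO replicate 1 (or 2), Tnfrsf13b was -6.55 (or 3.75) in early Bcl11b KO, since early KO replicate 2 had none.

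Same-numbered libraries deviated together with correlations of -0.02 (early Bcl11b), 0.34 (late Bcl11b), 0.17 (early Gata3) and 0.36 (late Gata3), and with 2 numbers per group they share only a number. A fit with the replicate number as a block called 8, 4, 2 and 16 members in the early, late, stage and WT comparisons of the Bcl11b experiment, and 24, 17, 17 and 0 in the Gata3 experiment. Over all genes it called 18.6%, 1.63%, 1.89% and 39.8% in the Bcl11b experiment. In the Gata3 experiment these shares were 40.0%, 23.7%, 22.6% and 0%.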

Other observations

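Tnfrsf11a, the receptor for RANKL, had 12 reads over the early Gata3 WT libraries and 1 over the early KO libraries, a ratio of 13.9 with an exact 95% counting interval of 2.06 to 596. Ltbr, the lymphotoxin beta receptor, had 15 reads in early Gata3 KO and 2 in early WT, a ratio of 6.46 with an interval of 1.502 to 58.2. These intervals compare the libraries and not the conditions.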
